A study of Mus musculus with 36 samples.

Results

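The mouse mitochondrial genome is a small circular DNA, and its genes were taken from the count table by a symbol that starts with mt-. This gave 37 of the 78298 genes in the table. They are 13 protein-coding genes, whose RNAs are called mt mRNAs here, 2 ribosomal RNA genes (mt-Rnr1 and mt-Rnr2) and 22 transfer RNA genes. The annotation puts 28 of them on the plus strand and 9 on the minus strand, and the minus-strand genes are mt-Nd6 and 8 tRNA genes. All 37 had at least 1 read in at least 1 library.

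RNA sequencing was done on hippocampal tissue in 36 libraries, in a series on cannabidiol (CBD, a non-intoxicating compound of cannabis) in mouse models of syndromic autism. The mice were wild type (WT), Fmr1 knockout (KO; Fmr1 is the gene silenced in fragile X syndrome) or Shank3 KO (Shank3 encodes a scaffold of the postsynaptic density, lost in Phelan-McDermid syndrome). Each genotype received vehicle or CBD under the skin for 7 days, which gave 6 groups of 6 libraries, each with 3 males and 3 females. The groups are named WT vehicle, WT CBD, Fmr1 KO vehicle, Fmr1 KO CBD, Shank3 KO vehicle and Shank3 KO CBD. The CBD dose was 5 mg/kg in males and 50 mg/kg in females, so sex and dose cannot be told apart in the treated mice. Both KO genotypes were compared with the same WT libraries, so their results share those controls. The animal codes start with FMR for the 12 Fmr1 KO and for 11 of the 12 WT mice, with CB for the other WT mouse (WT CBD replicate 1) and with SKO for the 12 Shank3 KO mice. No WT mouse carries an SKO code, so in the comparisons of Shank3 KO with WT genotype and code series cannot be told apart. The sources used here do not give the alleles, the background strain, the age, the litters, or whether ribosomal RNA was removed or poly(A) RNA selected. Only the animal codes say that the libraries come from separate mice, so every p-value measures the spread between these libraries.

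The mitochondrial genome encodes core subunits of respiratory complexes I, III and IV and of ATP synthase, and the RNAs needed to translate them inside the organelle. Both strands are transcribed as long precursors that are cut at the tRNAs, which releases the mRNAs and rRNAs, so neighbouring genes start from shared transcripts and their final levels are set largely after transcription. The remaining subunits of the same complexes are encoded in the nucleus. Neurons depend heavily on oxidative phosphorylation, and in brain tissue mitochondrial RNA is abundant. Mature mitochondrial tRNAs are short and heavily modified, and standard RNA-seq libraries capture them poorly.

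Nuclear copies of mitochondrial DNA bear on how reads of these genes can be counted, and the sequences below show how alike they are. A search of the 37 transcripts against all other GENCODE vM21 transcripts found 7 pseudogenes on chromosome 1 that match 8 of the mt mRNAs with at most 1 mismatch each over the aligned bases. None of the 24 rRNA and tRNA genes had such a copy among these transcripts, and sequence outside annotated transcripts was not searched. The tRNA genes mt-Ts1, mt-Td, mt-Tk, mt-Tg and mt-Tr lie between mt mRNA genes that have copies. Whether chromosome 1 also holds copies of these tRNA genes was not tested. Within these stretches only 2 base differences were found, and positions are counted from 1 at the first base of the mitochondrial transcript. In mt-Nd3, a complex I subunit, the difference is T3C, and in mt-Co1, the catalytic subunit of complex IV, it is A1066T. The first bases of mt-Nd3 and of its copy Gm28438, and the stretch of mt-Co1 where its copy Gm29216 begins, are shown with the differing base in capitals.
mt-Nd3: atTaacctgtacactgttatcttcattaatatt
Gm28438: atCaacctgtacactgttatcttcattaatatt
mt-Co1: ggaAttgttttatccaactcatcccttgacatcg
Gm29216: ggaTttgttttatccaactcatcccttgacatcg

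The other 5 copies had no difference in their aligned bases. Gm28661 holds 681 bases of mt-Co2, Gm10925 holds 678 bases of mt-Atp6 and the last 43 bases of mt-Atp8, Gm28437 holds 783 bases of mt-Co3, Gm10222 holds 294 bases of mt-Nd4l, and Gm28439 holds the first 876 bases of mt-Nd4. Gm29216 holds the last 483 bases of mt-Co1 and Gm28438 holds 345 bases of mt-Nd3. Along chromosome 1 the 7 copies lie in the reverse of the mitochondrial order, from Gm28439 to Gm29216. A read from inside such a stretch cannot be assigned by its sequence, and the sources used here do not say how the authors' counting treated reads with several matches. The levels of mt-Co2, mt-Atp6, mt-Co3, mt-Nd3 and mt-Nd4l, each over 80% shared, are therefore uncertain.

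Members also overlap each other on the mitochondrial genome. The reading frames of mt-Atp8 and mt-Atp6, both subunits of ATP synthase, share 43 bases, shown in capitals at the end of the former and the start of the latter.
mt-Atp8: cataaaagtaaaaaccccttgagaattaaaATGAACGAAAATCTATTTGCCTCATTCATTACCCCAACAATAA
mt-Atp6: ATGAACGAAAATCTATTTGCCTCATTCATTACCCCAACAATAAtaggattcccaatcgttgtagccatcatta
In all, 16 of the 37 genes overlap another member by at least 1 base. The largest overlap between strands is that of mt-Nd6, on the minus strand, with the end of mt-Nd5 over 14 bases. The sources used here do not say whether the counting used strand, so a minus-strand gene and antisense RNA from the plus strand cannot be told apart.

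The tRNA genes are shown by the pair with the most reads and the gene with the fewest, in lower case throughout.
mt-Tp: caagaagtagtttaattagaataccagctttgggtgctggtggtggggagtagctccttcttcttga
mt-Tc: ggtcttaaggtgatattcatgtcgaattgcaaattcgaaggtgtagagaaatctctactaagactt
mt-Tk: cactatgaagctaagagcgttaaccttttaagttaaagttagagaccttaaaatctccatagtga
mt-Tp (tRNA for proline, 67 bases, minus strand) and mt-Tc (tRNA for cysteine, 66 bases, minus strand) together held 75.3% of all tRNA counts. mt-Tk (tRNA for lysine, 65 bases, plus strand) had no read in 34 of the 36 libraries. These sequences are those of the GENCODE vM21 annotation, which is on GRCm38, while the deposited counts were made on GRCm39. The lengths deposited for the 37 genes equal those of the annotation for 37 of 37.

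Total counts ran from 11655697 to 33228089 per library with a median of 26717940.5, and the lowest was Shank3 KO vehicle replicate 2, next to 21071167 for the second lowest. In WT libraries Fmr1 had 66.6, 72.2 and 84.6 CPM (counts scaled to a common library total) in the lowest, median and highest of 12 libraries, and in Fmr1 KO libraries 31.2, 41.3 and 45.3, with no overlap. Shank3 had 183, 274 and 419 CPM in WT and 151, 166 and 225 CPM in Shank3 KO libraries, and these ranges overlapped. The deposited gene lengths of 97.8% of 21722 nuclear protein-coding genes lie within 5% of the gene's whole span, so the counts of nuclear genes can include introns. Markers of dentate, CA1 and CA3 neurons, which define the hippocampus, were measured in every library, and their mean log2 CPM ran from 3.01 to 6.15, from 4.58 to 6.64 and from 4.13 to 5.88. The other marker lists also varied between libraries, from -0.64 to 5.70 for choroid plexus, from 1.53 to 5.96 for striatal neurons and from 4.28 to 6.90 for thalamic neurons.

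Mitochondrial genes took a small and variable part of each library. The 37 genes together held 1.24% to 3.36% of a library's counts, with a median of 2.23%. Of these counts 76.8% fell on mt mRNAs, 22.9% on the 2 rRNAs and 0.365% on the 22 tRNAs. The 8 most counted genes held 98.1% of all mitochondrial counts. They were mt-Co1 with 39.3%, mt-Rnr2 with 14.7%, mt-Cytb (the cytochrome b of complex III) with 8.88%, mt-Nd1 with 8.29%, mt-Rnr1 with 8.17%, mt-Nd5 with 7.45%, mt-Nd4 with 6.49% and mt-Nd2 with 4.76%. The mt-Nd genes encode complex I subunits.

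Per length, mt-Co1 stood far above the rest of its class. Its level was 5867 ± 765 CPM per kb (SD, n = 36), at chrM:5328-6872 on the plus strand. Next came mt-Rnr2 (the large rRNA, chrM:1094-2675) with 2113 ± 882 CPM per kb, mt-Nd1 with 1979 ± 638 CPM per kb, mt-Rnr1 (the small rRNA, chrM:70-1024) with 1942 ± 753 CPM per kb and mt-Cytb with 1774 ± 481 CPM per kb. These 4 levels differ by less than their spread between libraries. Below them lay mt-Nd4 with 1081 ± 306 CPM per kb, mt-Nd2 with 1050 ± 418 CPM per kb and mt-Nd5 with 935 ± 314 CPM per kb, which likewise differ by less than their spread. mt-Nd6 (chrM:13552-14070), the only mt mRNA gene on the minus strand and a complex I subunit, had 333 ± 117 CPM per kb.

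The mt mRNA genes whose sequence is nearly all shared with a chromosome 1 copy were listed far lower. The 5 genes with over 80% shared bases ran from 48.4 CPM per kb (mt-Atp6) to 78.4 CPM per kb (mt-Co3), while 7 of the other 8 ran from 333 to 5867 CPM per kb. The exception, mt-Atp8, shares 21.1% of its 204 bases with an annotated copy and had 18.8 CPM per kb. It lies between mt-Co2 and mt-Atp6, whose copies Gm28661 and Gm10925 follow each other in the order of the copies. The sequence between these 2 copies was not searched, so the shared part of mt-Atp8 can be larger. For the 2 genes that are shared in part, the level per unshared kb was 8535 CPM for mt-Co1 and 2968 CPM for mt-Nd4. The copies themselves had mean levels of 119 CPM (Gm29216), 67.9 CPM (Gm28661), 93.1 CPM (Gm10925), 109 CPM (Gm28437), 18.2 CPM (Gm10222) and 56.1 CPM (Gm28439). Gm28438, the copy of mt-Nd3, had 0 counts in every library. What part of the low levels comes from the handling of shared reads was not tested.

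**Figure D1:**
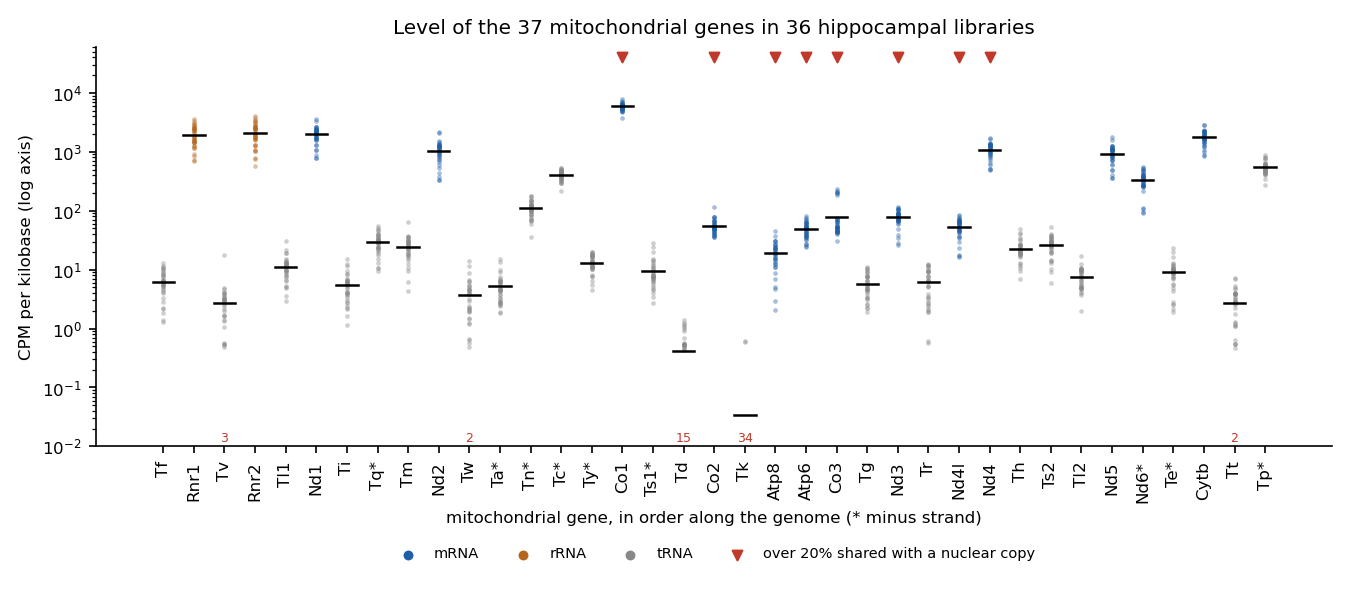
Level of the 37 mitochondrial genes in genome order, as CPM per kb on a log axis; each point is 1 of 36 libraries, the black line is their mean, a red triangle marks a gene with over 20% of its bases shared with a near-identical nuclear copy, a red number gives the libraries with 0 counts and an asterisk the minus strand. mt-Co1 is highest at 5867, the shared genes mt-Co2 to mt-Nd4l fall between 48.4 and 78.4 except mt-Atp8 at 18.8, and most tRNA genes lie lower still.

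Among the tRNA genes, few had enough reads to measure. mt-Tp had 548 ± 131 CPM per kb (SD, n = 36), mt-Tc had 404 ± 74.1 CPM per kb and mt-Tn, the tRNA for asparagine, had 110 ± 34.1 CPM per kb. The other 19 had mean levels of at most 2.08 CPM, and 7 of the 22 exceeded 1 CPM. The 4 highest, mt-Tp, mt-Tc, mt-Tn and mt-Tq, all lie on the minus strand. The median count per library was under 25 reads for 15 of the 22 genes, and 5 had libraries with no read, mt-Tk in 34, mt-Td in 15, mt-Tv in 3, mt-Tw in 2 and mt-Tt in 2. mt-Tk, mt-Td, mt-Tv and mt-Tt did not pass the filter on low counts, so 33 of the 37 genes entered the tests.

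Levels of single genes varied between libraries of the same group in a shared manner. The coefficient of variation over the 36 libraries was 13% for mt-Co1, from 27.1% to 50.5% for 11 other mt mRNAs, 75.9% for mt-Co3, and 38.8% and 41.7% for mt-Rnr1 and mt-Rnr2. After each gene's log2 CPM was centred on its group mean, mt-Nd1, mt-Nd2, mt-Nd4, mt-Nd5, mt-Nd6 and mt-Cytb followed each other closely, with Pearson's r from 0.903 to 0.995 over 15 pairs. mt-Nd6 belongs to this set although its gene lies on the other strand. Since the use of strand in the counting is not stated, its counts can include antisense RNA from the plus strand. The same coefficient for mt-Co1 with these 6 genes was 0.504 to 0.729, for the 2 rRNAs with them 0.534 to 0.863, and for mt-Rnr1 with mt-Rnr2 0.910. For mt-Co3, whose level fell into 2 separate ranges described below, it was 0.0743 to 0.186. These values and the 75.9% variation of mt-Co3 include that split. The tRNA genes had a median of 0.481 with these mRNAs. All these points share library, depth and the common total, so they are descriptions and carry no p.

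The proportion of mt-Co1 among the mt mRNAs separated 5 libraries from the rest. In 31 libraries mt-Co1 held 41.9% to 56.6% of the mt mRNA counts, with a median of 50.5%. It held 62.6% in WT vehicle replicate 6, 67.5% in WT CBD replicate 1, 68.9% in Fmr1 KO vehicle replicate 3, 68.3% in Fmr1 KO CBD replicate 5 and 68.6% in Shank3 KO CBD replicate 6. All but WT vehicle replicate 6 are males, with a CBD male of each genotype and no CBD female. These libraries come from 5 of the 6 groups. In them the summed complex I genes mt-Nd1, mt-Nd2, mt-Nd4 and mt-Nd5 stood at a log2 ratio to mt-Co1 of -1.72 to -1.23, against -0.90 to 0.04 in the others. The log2 ratio of mt-Nd6 to the other mt mRNAs was -8.02 to -7.09 in them and -6.90 to -6.00 in the others. Both ratios were lower in these 5 without overlap. The 5 were set apart by their mt-Co1 share, and mt-Co1 is in the denominator of both ratios. Neither ratio is therefore independent of that choice, and the first largely restates it.

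The count-weighted GC content of the nuclear genes moved with this split. The GC of the reads themselves was not measured. This content was computed as the mean GC percentage of the longest annotated transcript of each nuclear gene, weighted by its counts. In the 5 libraries it was 48.7%, 49.1%, 48.4%, 49.0% and 48.8% in the order above, and in the other 31 it ran from 47.6% to 48.6%, so 1 of the 5 lay inside the range of the others. The 4 libraries with the highest GC were all among the 5. Since the libraries fall into separate sets, no coefficient over all of them is given. The median GC content of the 13 mt mRNAs themselves is 37.1%. With 4 of the 5 libraries above all others in GC, GC and whatever else sets these libraries apart cannot be told apart.

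**Figure D2:**
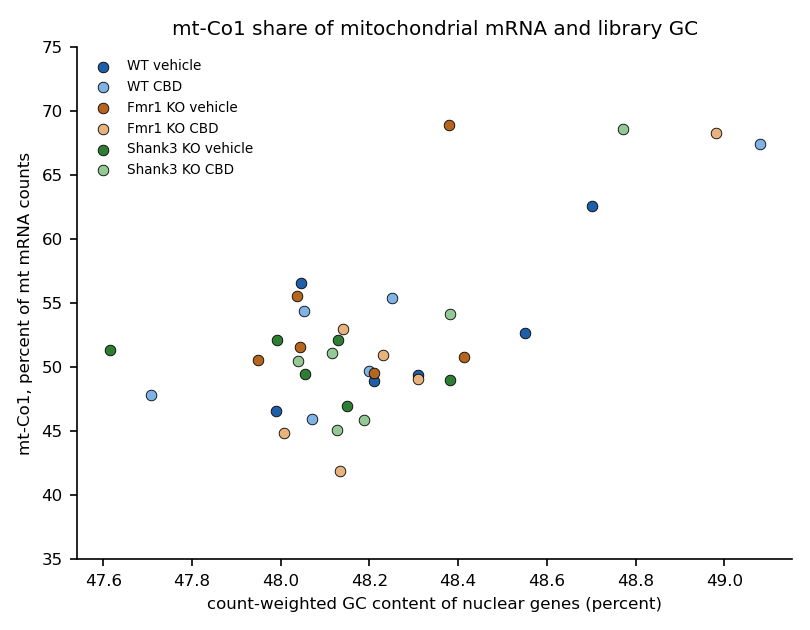
Share of mt-Co1 in the mt mRNA counts (percent, vertical) against the count-weighted GC content of nuclear genes (percent, horizontal), 1 point per library, with the group given by colour. Libraries above 60% on the vertical axis number 5, from 62.6% to 68.9%, and the other 31 lie between 41.9% and 56.6%.

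The nuclear genes whose levels followed the summed mt mRNA most closely were found by the same centred correlation over the 36 libraries. The highest was Uqcrb, a nuclear-encoded subunit of complex III, with r = 0.937. Tpr followed with 0.896, Rpl23a with 0.889, Cycs (cytochrome c) with 0.888, the mitochondrial copy Gm10222 with 0.883, and Atpif1 (the inhibitor of ATP synthase) with 0.882. Hnrnph2 had 0.873, Bex3 0.869, Hcfc1r1 0.867 and the pseudogene Rpl7a-ps10 0.865. Gm10222 is 1 of the copies described above and shares 294 bases with mt-Nd4l. At the other end Htt had r = -0.834 and Hmbox1 r = -0.796.

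The level of mt-Co3, a core subunit of complex IV, took 2 separate ranges. In 30 libraries it lay between 23.7 and 59.3 CPM. In the other 6 it was 158 CPM and 185 CPM (Fmr1 KO vehicle replicates 1 and 6), 160 CPM and 154 CPM (Shank3 KO vehicle replicates 3 and 5), and 170 CPM and 147 CPM (Shank3 KO CBD replicates 1 and 3). No WT library and no Fmr1 KO CBD library was in the high range. The ratio of mt-Co3 to its copy Gm28437, which has the same 783 bases, was 0.319 to 0.60 in the 30 libraries and 1.09 to 2.06 in the 6. Gm28437 itself ran from 39.6 to 169 CPM in the 30 libraries and from 82.5 to 170 CPM in the 6. The sum of mt-Co3 and Gm28437 was 63.3 to 228 CPM in the 30 and 246 to 355 CPM in the 6. The sum thus set the same 6 libraries apart without overlap. What part of this split comes from the handling of shared reads was not tested.

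**Figure D3:**
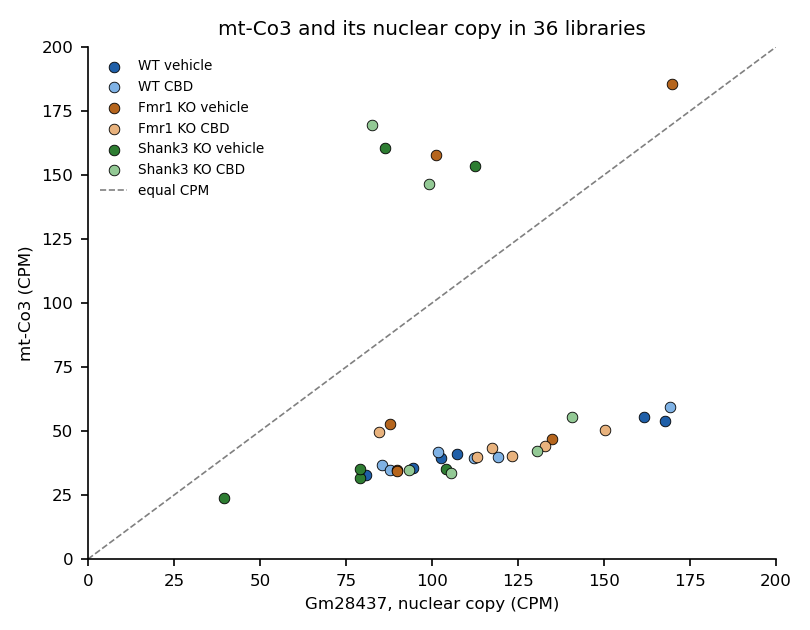
mt-Co3 against its chromosome 1 copy Gm28437, both in CPM, 1 point per library, coloured by group, with the dashed line where both are equal. The 6 libraries above the line have 147 to 185 CPM of mt-Co3 and the other 30 lie below it with 23.7 to 59.3 CPM.

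The 2 sequences differ at no base over that stretch, so the same RNA can be listed under either name, and the values were also tested as a sum. By edgeR's quasi-likelihood test mt-Co3 differed by a log2 fold change of 0.98 ± 0.45 (SE) between Fmr1 KO vehicle and WT vehicle, with an unadjusted p = 0.0395 and an adjusted p = 1. With Gm28437 added to it the log2 fold change was 0.33 and the unadjusted p = 0.211. For Shank3 KO the log2 fold change of mt-Co3 against WT was 0.84 under vehicle (unadjusted p = 0.0747) and 0.91 under CBD (unadjusted p = 0.0559). With the copy added these became -0.01 (unadjusted p = 0.971) and 0.30 (unadjusted p = 0.249). So in no comparison was mt-Co3 different beyond the spread between libraries once all 21172 genes were accounted for.

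Group levels of the mitochondrial RNAs overlapped throughout. The share of a library's counts on mt mRNAs had a lowest, median and highest value of 1.31%, 1.93% and 2.15% in WT vehicle and of 1.49%, 1.72% and 2.08% in WT CBD. In Fmr1 KO the values were 1.28%, 1.70% and 1.99% under vehicle and 1.13%, 2.03% and 2.48% under CBD. In Shank3 KO they were 1.54%, 1.78% and 2.01% under vehicle and 1.05%, 1.66% and 2.7% under CBD. The lowest and the highest library of the whole series were therefore both in Shank3 KO CBD, and the 2 KO CBD groups were the widest, with SDs of 0.488 and 0.594 percentage points against 0.193 to 0.322 in the other 4 groups. Less mitochondrial RNA per cell and fewer of the cells that hold it cannot be told apart in bulk tissue.

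The rRNA share was more variable for its size. It had a lowest, median and highest value of 0.290%, 0.718% and 0.986% in WT vehicle and 0.321%, 0.506% and 0.651% in WT CBD. In Fmr1 KO it had 0.156%, 0.428% and 0.881% under vehicle and 0.366%, 0.618% and 0.796% under CBD. In Shank3 KO it had 0.244%, 0.467% and 0.815% under vehicle and 0.188%, 0.453% and 0.649% under CBD. WT vehicle had the highest median and the highest single library of the 6 groups, and every pair of groups overlapped. The amount of rRNA retained depends on the library preparation, which the sources used here do not describe.

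**Figure D4:**
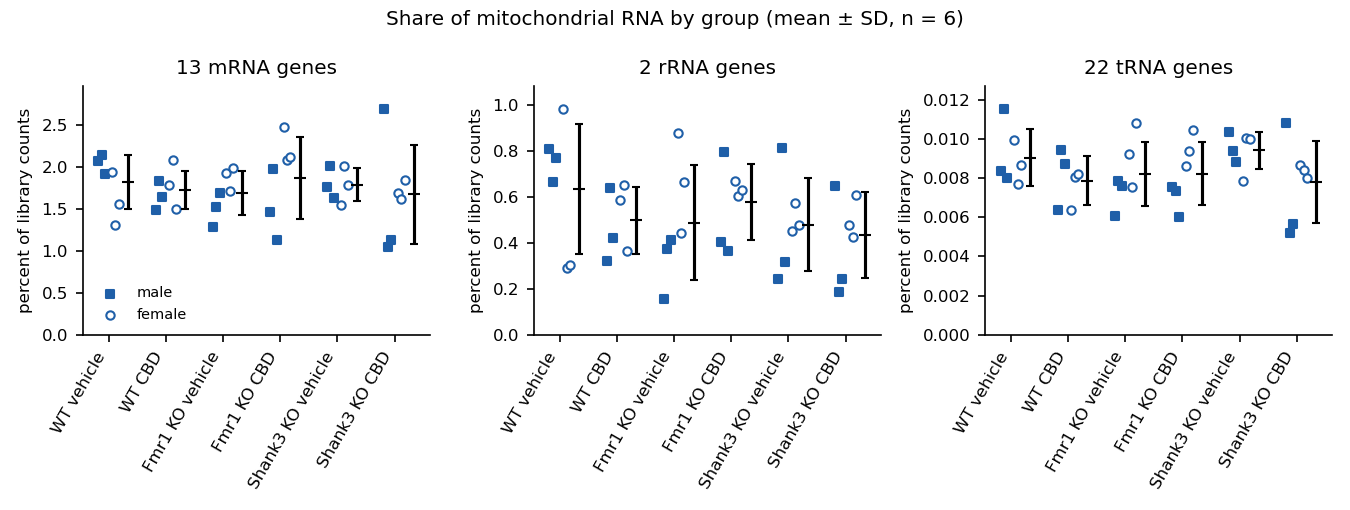
Percent of each library's counts on mt mRNAs, on the 2 mt rRNAs and on the mt tRNAs, by group; squares are males, open circles females, and bars the mean ± SD of 6 libraries. All 6 groups overlap for each RNA class, and the mt mRNA share runs from 1.05% to 2.7%.

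Exact permutation tests compared these shares, and the 6 v 6 design could reach p = 0.0022. In the vehicle groups the mt mRNA share differed by -0.135 percentage points in Fmr1 KO against WT (95% interval -0.517 to 0.232, exact two-sided p = 0.433) and by -0.0342 in Shank3 KO against WT (exact p = 0.840). Under CBD the differences from WT were 0.149 for Fmr1 KO (exact p = 0.524) and -0.0510 for Shank3 KO (exact p = 0.874). Of the 78 tests over 6 measures (the shares of all mt genes, of mRNAs, of rRNAs and of tRNAs and the log2 ratios of rRNAs to mRNAs and of mt-Nd6 to the other mRNAs) and 13 comparisons, 0 had a p under 0.05. The lowest was 0.0817 and the lowest adjusted p was 0.549.

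Gene by gene, no mitochondrial gene passed the test between Fmr1 KO and WT vehicle libraries. By edgeR's quasi-likelihood test at an adjusted p under 0.05, 0 of 33 were called, where 0.0283% of all genes were. At an unadjusted p under 0.05 there were 2, or 6.06%, where 2.24% of all genes were, and DESeq2 gave 2 and limma voom 0. They were mt-Co3, described above, and mt-Tg, the tRNA for glycine. mt-Tg had a lowest, median and highest level of 0.127, 0.268 and 0.516 CPM in Fmr1 KO and of 0.313, 0.530 and 0.713 CPM in WT, which overlap and rest on a median of 10 reads per library. Its log2 fold change was -0.76 ± 0.35 (SE; edgeR unadjusted p = 0.0368, adjusted p = 1). The median log2 fold change was -0.15 over the 13 mRNAs (4 higher, 9 lower), -0.42 over the 2 rRNAs and -0.15 over the 18 tested tRNAs, against 0.00 over all genes. The mRNA median was -0.27 without WT vehicle replicate 6 and -0.02 without Fmr1 KO vehicle replicate 3.

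The rRNAs and mt-Co1 in these groups show the precision of the data. mt-Rnr2 had 901, 2758 and 5960 CPM in Fmr1 KO vehicle and 1658, 4859 and 6474 CPM in WT vehicle. Its log2 fold change was -0.46 ± 0.36 (edgeR adjusted p = 1). mt-Rnr1 had 662, 1527 and 2853 CPM against 871, 2254 and 3386 CPM, a log2 fold change of -0.38 ± 0.32 (edgeR adjusted p = 1). mt-Co1 was close to equal with 8493, 8851 and 10127 CPM against 7438, 9604 and 11317 CPM. Its 95% interval of -0.27 to 0.22 on the log2 scale was the narrower one, where that of mt-Rnr2 reached from -1.20 to 0.28. The group means of mt-Nd6 were 154 ± 61.5 CPM (SD, n = 6) and 177 ± 41.6 CPM, with a log2 fold change of -0.22 ± 0.35.

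Under CBD, Fmr1 KO libraries had higher values than WT for all 13 mt mRNAs, none of them past the test. The median log2 fold change was 0.21 over the mRNAs, 0.26 over the rRNAs and 0.17 over the tRNAs (12 higher, 6 lower), against 0.00 over all genes. The mRNA median was 0.36 without Fmr1 KO CBD replicate 5 and 0.08 without replicate 1 of that group. Of the 33 genes 0 were called by edgeR's quasi-likelihood test, where 0.0331% of all genes were. At an unadjusted p under 0.05 there were 2 (6.06%, against 7.4% of all genes), and DESeq2 gave 2 and limma voom 1. mt-Tg was again the smallest p, with 0.152, 0.437 and 0.613 CPM in Fmr1 KO CBD and 0.153, 0.234 and 0.318 CPM in WT CBD. Its log2 fold change of 0.82 (edgeR unadjusted p = 0.0308, adjusted p = 0.654) had the opposite sign to that under vehicle. mt-Tl2, a leucine tRNA, differed by 0.63 (unadjusted p = 0.0408).

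In Shank3 KO vehicle libraries the rRNAs had lower and most tRNAs higher fitted values than in WT vehicle, none past the test. The median log2 fold change was 0.04 over the mRNAs (8 higher, 5 lower), -0.43 over the rRNAs and 0.18 over the tRNAs (14 higher, 4 lower), against a median within 0.01 of 0 over all genes. The sign of the mRNA median was not stable, since it was -0.08 when WT vehicle replicate 6 was left out, 0.16 when replicate 1 of the same group was, and -0.21 with library GC as a covariate. edgeR's quasi-likelihood test called 0 of 33, where 0.0378% of all genes were called. There were 2 at an unadjusted p under 0.05 (6.06%, against 5.63% of all genes), and DESeq2 gave 2 and limma voom 1. mt-Tl2 had 0.350, 0.685 and 1.2 CPM in Shank3 KO and 0.142, 0.355 and 0.611 CPM in WT, a log2 fold change of 0.82 ± 0.31 (edgeR adjusted p = 0.853). mt-Te, the tRNA for glutamate, had 0.594, 0.742 and 1.63 CPM against 0.133, 0.459 and 0.832 CPM, a log2 fold change of 0.99 ± 0.41 (edgeR adjusted p = 0.853). Both pairs of groups overlapped. The highest value of each of these tRNAs was that of Shank3 KO vehicle replicate 2, the library with the lowest total count.

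Under CBD no mitochondrial gene passed the test between Shank3 KO and WT libraries. Median log2 fold changes were -0.00 over the mRNAs (6 higher, 7 lower), -0.20 over the rRNAs and 0.00 over the tRNAs (9 higher, 9 lower). edgeR called 0 of 33 mitochondrial genes and 0.0425% of all genes. mt-Tg alone had an unadjusted p under 0.05 (3.03%, against 1.65% of all genes; DESeq2 2, limma voom 1), with 0.168, 0.353 and 0.744 CPM in Shank3 KO CBD against the WT CBD values above. Its log2 fold change was 0.79 ± 0.37 (edgeR adjusted p = 1). The mRNA median rested on single libraries, since it was -0.32 without Shank3 KO CBD replicate 2 and 0.15 without replicate 6 of that group.

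CBD was compared with vehicle within each genotype, at both doses together. In WT the mt mRNA share differed by -0.101 percentage points (exact two-sided p = 0.535), in Fmr1 KO by 0.183 (exact p = 0.439) and in Shank3 KO by -0.118 (exact p = 0.693). The median log2 fold changes of the mRNAs were -0.07, 0.26 and -0.09 in that order, and of the rRNAs -0.35, 0.33 and -0.12. Single libraries moved the mRNA medians. In WT the median was -0.22 without WT vehicle replicate 6 and 0.06 without WT CBD replicate 1, and in Fmr1 KO 0.13 without Fmr1 KO CBD replicate 1 and 0.41 without replicate 5 of that group. In Shank3 KO it was -0.43 without Shank3 KO CBD replicate 2 and 0.07 without replicate 6 of that group. No mitochondrial gene was called in any of the 3, and edgeR's quasi-likelihood test called 0% of all genes in each. Those at an unadjusted p under 0.05 were 2 of 33 in WT (6.06%, against 2.68% of all genes), 0 in Fmr1 KO (against 2.64%) and 6 in Shank3 KO (18.2%, against 4.41%). DESeq2 gave 2, 0 and 6, and limma voom 1, 0 and 4.

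**Figure D5:**
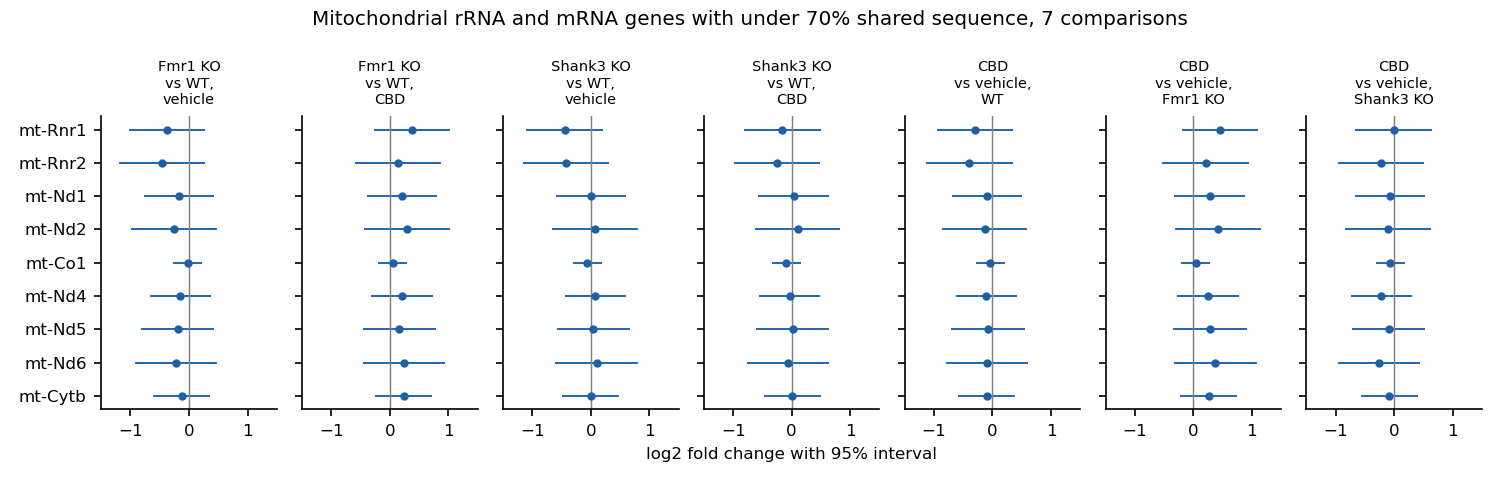
Log2 fold change with its 95% interval (edgeR) for mt-Rnr1, mt-Rnr2, mt-Co1, mt-Nd6 and the other mt mRNAs with under 70% shared sequence, other than mt-Atp8, in the 4 comparisons of a KO with WT and the 3 of CBD with vehicle. Intervals of mt-Co1 stay within -0.34 and 0.29 and those of mt-Rnr2 within -1.20 and 0.95, and all include 0.

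In WT mice the member with the smallest p under CBD was again mt-Tg. Its levels were 0.153, 0.234 and 0.318 CPM under CBD and 0.313, 0.530 and 0.713 CPM under vehicle, so the ranges met at their ends. The log2 fold change was -1.10 ± 0.37 (edgeR unadjusted p = 0.00445, adjusted p = 1). mt-Ta, the tRNA for alanine, differed by -1.01 (unadjusted p = 0.0178). The same WT CBD libraries are the controls of both KO comparisons under CBD, and the same WT vehicle libraries those of both KO comparisons under vehicle.

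In Fmr1 KO mice 12 of the 13 mt mRNAs had higher fitted values under CBD and 1 lower. That 1 was mt-Co3, which had the smallest p of the 33, with 39.8, 43.7 and 50.5 CPM under CBD and 34.4, 49.8 and 185 CPM under vehicle. Its log2 fold change was -0.87 ± 0.45 (edgeR unadjusted p = 0.0644, adjusted p = 1), and both high libraries of Fmr1 KO vehicle named above enter it. mt-Rnr1 had 1390, 2344 and 3178 CPM under CBD and 662, 1527 and 2853 CPM under vehicle, a log2 fold change of 0.45 ± 0.32 (edgeR adjusted p = 1).

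In Shank3 KO mice the 6 genes at an unadjusted p under 0.05 were all tRNAs with lower values under CBD. mt-Th, the tRNA for histidine, had 0.623, 1.26 and 1.38 CPM under CBD and 1.16, 1.91 and 3.26 CPM under vehicle. Its log2 fold change was -0.93 ± 0.29 (edgeR unadjusted p = 0.00314, adjusted p = 0.963). The others were mt-Tm with -0.92, mt-Te with -0.97, mt-Tl1 with -0.80, mt-Tn with -0.52 and mt-Tc with -0.33. Over the 18 tested tRNAs 15 were lower and 3 higher, with a median of -0.39, against 0.00 over all genes. Leaving out 1 library at a time gave 2 to 7 such genes. Without Shank3 KO CBD replicate 2, the library with the highest mt mRNA share, there were 7. Shank3 KO vehicle replicate 2, the library with the lowest total count, had the highest mt-Th, mt-Tm and mt-Te levels of the series.

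mt-Tn and mt-Tc are the 2 of these with enough reads to measure well. mt-Tn had 4.88, 6.02 and 8.68 CPM under CBD and 6.18, 9.25 and 12.5 CPM under vehicle in Shank3 KO. mt-Tc had 14.3, 22.8 and 32.3 CPM against 25.4, 29.6 and 34.5 CPM. Both overlap between the groups. mt-Tp, the most counted tRNA gene, had 18.4, 34.9 and 59.1 CPM under CBD and 30.6, 40.3 and 47.7 CPM under vehicle, with a log2 fold change of -0.08 ± 0.19. In the other 2 genotypes the median of the tRNAs under CBD was -0.11 (WT) and 0.11 (Fmr1 KO).

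The CBD effect itself was compared between genotypes by the interaction. For Fmr1 KO against WT the difference of effects in mt mRNA share was 0.284 percentage points (permutation p = 0.305), and in 12 of 13 mt mRNAs the fitted difference was positive, with a median of 0.35 on the log2 scale (0.20 without Fmr1 KO CBD replicate 1 and 0.50 without replicate 5 of that group). Of 33 genes edgeR's quasi-likelihood test called 0, as of all genes (0%), and 1 had an unadjusted p under 0.05 (3.03%, against 3% of all genes; DESeq2 1, limma voom 1). That was mt-Tg with a log2 difference of 1.58 ± 0.51 (unadjusted p = 0.00357, adjusted p = 0.993). For Shank3 KO against WT the difference in share was -0.0168 (permutation p = 0.957) and the mRNA median 0.01. edgeR called 0 (0% of all genes), and 2 genes had an unadjusted p under 0.05 (6.06%, against 4.74%; DESeq2 3, limma voom 1), mt-Te with -1.39 ± 0.58 (adjusted p = 0.912) and mt-Tm with -1.09. Without Shank3 KO CBD replicate 2 that mRNA median was -0.30, and 0.15 without replicate 6 of that group.

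Over the 3 genotypes together CBD and vehicle libraries differed in mt mRNA by less than the spread between libraries. The mean difference in share was -0.0120 percentage points (permutation p = 0.924), and the mRNA median 0.03 on the log2 scale (8 higher, 5 lower), or -0.09 without Shank3 KO CBD replicate 2 and 0.08 without Fmr1 KO CBD replicate 5. edgeR's quasi-likelihood test called 0 of 33 genes and 0.0189% of all genes. The tRNAs had lower values in 13 of 18, with a median of -0.12, and 4 had an unadjusted p under 0.05 (12.1%, against 3.16% of all genes; DESeq2 4, limma voom 1). These were mt-Tl1 with -0.48 ± 0.20 (edgeR unadjusted p = 0.0223, adjusted p = 1), mt-Ta with -0.51, mt-Tn with -0.31 and mt-Tc with -0.16. Leaving out 1 library at a time gave 1 to 5 such genes. The summed tRNAs had a lowest, median and highest level of 52.0, 81.5 and 108 CPM in the 18 CBD libraries and of 60.7, 87.4 and 115 CPM in the 18 vehicle libraries.

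Sex was compared in the vehicle mice, where no dose differs. Males had a lowest, median and highest mt mRNA share of 1.28%, 1.76% and 2.15% and females of 1.31%, 1.79% and 2.01%. The difference of females minus males was -0.0265 percentage points (exact p = 0.836, with a smallest possible p of 0.0002). No member was called by edgeR's quasi-likelihood test, which called 0.0331% of all genes. At an unadjusted p under 0.05 there were 0 of 33, against 2.74% of all genes, and DESeq2 and limma voom each gave 1. The smallest p was that of mt-Tf, the tRNA for phenylalanine, with 0.0949, 0.340 and 0.686 CPM in males and 0.226, 0.531 and 0.773 CPM in females, a log2 difference of 0.67 ± 0.34 (edgeR adjusted p = 1).

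CBD against vehicle was then taken within each sex, which also separates the doses. In males (5 mg/kg) the mt mRNA share was 1.05%, 1.49% and 2.7% under CBD, and the mean difference over genotypes was -0.181 percentage points (exact p = 0.384). In females (50 mg/kg) it was 1.5%, 1.84% and 2.48% under CBD with a mean difference of 0.157 (exact p = 0.176). The fitted values were lower in 12 of 13 mt mRNAs in males, with a median of -0.18, and higher in 13 of 13 in females, with a median of 0.25. The difference between these effects, a comparison added after the data were seen, was 0.337 percentage points (permutation p = 0.140), with a median of 0.45 over the mRNAs on the log2 scale. In no direction did a difference exceed the spread between libraries.

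None of the 33 genes was called in males, females or the difference by edgeR's quasi-likelihood test, which called 0%, 0.0142% and 0% of all genes. At an unadjusted p under 0.05 there were 4 in males (12.1%, against 6.97% of all genes), 0 in females (against 3.07%) and 0 for the difference (against 7.4%). DESeq2 gave 3, 0 and 2, and limma voom 2, 2 and 1. In males mt-Th had 0.457, 1.1 and 1.76 CPM under CBD and 0.782, 1.55 and 3.26 CPM under vehicle, a log2 fold change of -0.59 ± 0.21 (edgeR unadjusted p = 0.0104, adjusted p = 0.709). In females the smallest p was that of mt-Tn, with 4.68, 7.64 and 9.75 CPM under CBD and 6.79, 8.75 and 12.5 CPM under vehicle (log2 fold change -0.38 ± 0.21, edgeR adjusted p = 0.984). For the difference it was mt-Ty, the tRNA for tyrosine, with 0.65 ± 0.32 (edgeR adjusted p = 0.659).

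The result in males rests on single libraries. Shank3 KO CBD replicate 2, a male, had the highest mt mRNA share of the series at 2.7%. Without it the mean difference in males was -0.359 percentage points (exact p = 0.0252), the difference of females minus males 0.516 (permutation p = 0.00752), and the mRNA medians -0.50 and 0.70. The genes with an unadjusted p under 0.05 then numbered 19 of 33 in males (57.6%, against 10.4% of all genes) and 15 of 33 for the difference (45.5%, against 10.3% of all genes), still with 0 called. Without Shank3 KO CBD replicate 6 the mRNA median in males was -0.06. Without the 5 libraries with a high proportion of mt-Co1, the mean difference in males was -0.0416 (exact p = 0.865), the difference of females minus males 0.190 (permutation p = 0.457), and the mRNA medians 0.06 and 0.13. Those 5 libraries include a CBD male of each genotype and no CBD female. With library GC as a covariate the median in males became 0.05, that in females 0.10, and that for the difference 0.06.

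Nuclear genes of mitochondrial function were taken as 10 lists with 203 tested genes. They are the nuclear subunits of complexes I (35), II (4), III (8) and IV (10) and of ATP synthase (14), the mitochondrial ribosome (71), factors of mitochondrial RNA processing and decay (29), of mtDNA replication (12) and of mtDNA transcription (10), and regulators of mitochondrial biogenesis (10). edgeR's quasi-likelihood test called 0 of the 203 in each of the 14 comparisons, and so did DESeq2 and limma voom. At an unadjusted p under 0.05 edgeR gave 0 to 20 of them, the most in the difference of females minus males (9.85%, against 7.4% of all genes). DESeq2 gave 0 to 22, the most in the same difference (10.8%, against 7.64% of all genes). limma voom gave 0 to 28, the most in Fmr1 KO against WT under CBD (13.8%, against 8.83% of all genes).

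The 71 nuclear subunits of oxidative phosphorylation had fitted values of mostly 1 sign in several comparisons. In Fmr1 KO against WT under CBD 67 were higher and 4 lower, where all 13 mt mRNAs were higher. In Shank3 KO against WT under vehicle 15 were higher and 56 lower, where the mt mRNAs were 8 higher and 5 lower. Under CBD in WT mice 7 were higher and 64 lower, and 4 and 9 of the mt mRNAs. In males under CBD 49 nuclear subunits were higher and 22 lower, while 12 of 13 mt mRNAs were lower, and in females 12 were higher and 59 lower, while 13 of 13 mt mRNAs were higher. These genes are not independent of each other, and none of them was past the test.

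Single nuclear genes with the smallest p had small differences. Atp5l, a subunit of ATP synthase, differed by -0.19 on the log2 scale under CBD over the 3 genotypes (edgeR unadjusted p = 0.000762, adjusted p = 1). In the same comparison all 10 genes of mtDNA transcription had lower fitted values, with a median of -0.06 against 0.01 over all genes. Tfb1m, a mitochondrial rRNA methyltransferase of that list, differed by -0.33 under CBD in Shank3 KO (unadjusted p = 0.00923, adjusted p = 0.963). Ppargc1a, the coactivator that drives mitochondrial biogenesis, had a difference of CBD effects between Shank3 KO and WT of -0.33 (unadjusted p = 0.0149, adjusted p = 0.912). In Fmr1 KO vehicle the smallest p were those of Mrps18c (0.25, unadjusted p = 0.0222), of the mitochondrial ribosome, and of Mgme1 (-0.26, unadjusted p = 0.0470), a nuclease of mtDNA replication.

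The mt mRNA share was set against scores of 16 marker lists, each the mean log2 CPM of its tested genes, over the 36 libraries. Only the blood cell list passed the adjustment. Its r with the mt mRNA share was 0.640 (permutation p = 1e-05, the smallest that 100000 resamples give, adjusted p = 0.00016) and Spearman's rho was 0.63 (permutation p = 4e-05, adjusted p = 0.00064). Without the 2 libraries farthest from the median score r was 0.676, and within WT, Fmr1 KO and Shank3 KO it was 0.688, 0.659 and 0.709. The list rests on few reads. Of its 5 genes Hba-a2, Hbb-bs and Alas2 had 0 counts in 36 of 36 libraries, Hba-a1 had a median of 0.475 CPM and at most 7.60 CPM, and Hbb-bt a median of 0.515 CPM and at most 2.26 CPM. The 5 genes summed to 0.149 to 9.87 CPM, and their part in the mt mRNA share was not tested. The other 15 lists had adjusted p of 0.272 or more for r and of 0.115 or more for rho, the latter in CA1 and striatal neurons.

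A further 4 measures were added after the data were seen. The mean log2 CPM of genes for cytosolic ribosomal proteins had r = 0.592 with the mt mRNA share (permutation p = 0.00015, adjusted p = 0.0006) and rho = 0.694 (permutation p = 1e-05). Without the 2 farthest libraries r was 0.677, and within WT, Fmr1 KO and Shank3 KO it was 0.673, 0.662 and 0.560. The nuclear subunits of oxidative phosphorylation had r = 0.328 (permutation, adjusted p = 0.0684) and rho = 0.406 (permutation p = 0.015, adjusted p = 0.0299), so the rank measure passed the threshold and r did not. Library GC had r = -0.328 (adjusted p = 0.0684) and rho = -0.141 (adjusted p = 0.410), and the total count r = 0.203 (adjusted p = 0.230) and rho = 0.343 (adjusted p = 0.0538). So libraries with more mt mRNA also had more mRNA of ribosomal proteins, in each genotype.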

How the data were processed

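Read counts per gene, as deposited by the authors, were used for all 36 libraries; they are whole numbers that were not normalised. Per the submitters' processing notes, the tools named are FastQC, STAR 2.7.11b, featureCounts 2.0.8, DESeq2 and edgeR, and the build is GRCm39. Genotype, treatment and sex came from the labels and the deposited sample sheet, which agreed on genotype and treatment for 36 of 36 libraries, and 0 columns of per-sample values were left unused. The deposited table holds Ensembl gene ids. Symbols came from a reference list of gene names or, where an id was missing there, from GENCODE vM21, and 51498 ids had one. Gene positions, transcript sequences and GC content came from GENCODE vM21 (GRCm38).

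CPM and shares were computed from all counts of a library. After edgeR's filterByExpr 21172 genes, with 99.9% of counts, were fitted with TMM scaling and the quasi-likelihood test (R 4.3.3, edgeR 4.0.16), with 6 groups and sex as terms, or 1 coefficient per genotype, treatment and sex for comparisons within a sex. P-values were adjusted by Benjamini-Hochberg over all these genes, at 0.05. Standard errors and 95% intervals are those of the fit. Shares were compared by exact permutation tests. CBD over all genotypes together and the difference of CBD effects between the sexes were tested by 100000 permutations. Alternatives were DESeq2 1.42.0 (its size factors in edgeR and its Wald test), limma 3.58.1 (voom with sample quality weights), TMM without the mitochondrial genes, no filter beyond 1 count, a filter of 10 counts in 30 libraries, no sex term, a replicate block, the compared groups alone and each library left out. Added after the data were seen were library GC as a covariate, the copies summed, and leaving out the 5 libraries with mt-Co1 over 60% of mt mRNA counts. Nuclear copies were searched with blastn 2.17.0 among annotated transcripts alone. Both statistics scripts were tested on simulated data.

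The members and the lists were chosen with earlier results of these data known. Named in full are members called in a comparison, mt-Rnr1, mt-Rnr2, mt-Co1, mt-Nd6, the tRNA gene highest in mean CPM, the member with the smallest p in each comparison, the list genes with the smallest p, and the 10 nuclear genes most like the summed mt mRNA.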

Additional observations from a re-analysis of the deposited data

Results flagged for a closer look

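In 10 of 132 groups of 6 values (7.58%), 1 library stood apart from the other 5 by Dixon's gap at its 95% critical value, and chance alone flags about 1 group in 20. The log2 ratio of mt-Nd6 to the other mt mRNAs was low in WT vehicle replicate 6 at -7.09 (the others -6.70 to -6.55), in WT CBD replicate 1 at -8.02 (the others -6.77 to -6.33), in Fmr1 KO vehicle replicate 3 at -7.85 (the others -6.90 to -6.36) and in Fmr1 KO CBD replicate 5 at -7.83 (the others -6.76 to -6.32). These are 4 of the 5 libraries in which mt-Co1 held over 60% of the mt mRNA counts. The same ratio was high in Shank3 KO vehicle replicate 2 at -6.00 (the others -6.76 to -6.63), the library with the lowest total count. In Fmr1 KO vehicle replicate 3 the share of mt-Co1 in the mt mRNA counts was 68.9% (the others 49.6% to 55.5%) and the log2 ratio of mt-Nd1, mt-Nd2, mt-Nd4 and mt-Nd5 to mt-Co1 was -1.72 (the others -0.82 to -0.44).

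For single genes, mt-Co3 was high in WT CBD replicate 1 at 59.3 CPM (the others 34.7 to 41.7 CPM), below the range of 147 to 185 CPM of the 6 high libraries of the KO groups. mt-Tl2 was high in WT CBD replicate 5 at 0.755 CPM (the others 0.260 to 0.439 CPM), and mt-Ty in Fmr1 KO vehicle replicate 6 at 1.35 CPM (the others 0.680 to 0.892 CPM), both from few reads.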

How the results depend on the processing

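No mitochondrial gene was called in any of the 14 comparisons under 411 settings, 258 that leave out a library and 153 others. The mt mRNA share kept its direction and its side of the threshold in 277 settings, changed sign in 35 and passed the threshold in 2, both without Shank3 KO CBD replicate 2. Leaving out each library in turn gave differences in percentage points from -0.237 to -0.0538 (Fmr1 KO against WT, vehicle), 0.0284 to 0.297 (the same, CBD), -0.136 to 0.0304 (Shank3 KO against WT, vehicle) and -0.256 to 0.0736 (the same, CBD). For CBD against vehicle the ranges were -0.203 to -0.0366 in WT, 0.0624 to 0.331 in Fmr1 KO, -0.323 to 0.00673 in Shank3 KO, -0.0803 to 0.0372 over all, -0.359 to -0.0848 in males and 0.108 to 0.213 in females. For the differences of effects they were 0.163 to 0.432 (Fmr1 KO), -0.222 to 0.108 (Shank3 KO) and 0.241 to 0.516 (females minus males), and for sex under vehicle -0.0828 to 0.0219. Without the 5 libraries with mt-Co1 over 60% of mt mRNA counts the sign turned for Shank3 KO against WT under CBD (0.0108), for the difference of effects in Shank3 KO (0.0984) and for CBD over all genotypes (0.0443); the cause was not tested. The mt mRNA medians changed sign in 17 of 153 settings that leave out no single library. With library GC this held for Shank3 KO against WT under vehicle (-0.21) and CBD (0.02), CBD in Shank3 KO (0.03) and in males (0.05), and sex under vehicle (0.16). Without the 5 libraries it held for Shank3 KO against WT under vehicle (-0.05) and CBD (0.04), and CBD in Shank3 KO (0.07) and in males (0.06). The difference of effects in Shank3 KO turned to -0.02 without the sex term, -0.12 with the replicate block and -0.08 by limma voom. The other 5 turns, all to within 0.02 of 0, were of sex under vehicle and of Shank3 KO against WT under vehicle.

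Same-numbered deviations of the share correlated over 0.1 in 6 of 15 pairs of groups. Each of these rests on 6 libraries a group, too few to decide whether replicate numbers pair the libraries. Over genes the mean correlation was 0.019 for same-numbered and -0.003 for differently numbered libraries. With the replicate block 0 genes were called, and the exact sign-flip p of the share were 0.406, 0.594, 0.844, 0.875, 0.719, 0.469 and 0.63 for the 4 KO and 3 CBD comparisons. Low counts limit the tRNAs, 15 of which had a median under 25 reads.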
